A study of Mus musculus with 20 samples.

Results

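The data described here are the liver transcriptomes of mice that drank corticosterone (CORT, the principal adrenal glucocorticoid of rodents) for 5 weeks, compared with those of mice that drank vehicle, all under the same isotype control antibody. The comparison took every liver labelled IgG_CORT (5 livers) and IgG_Veh (5 livers), which makes 10 of the 20 livers of the series, and all 48440 genes of the count table. All mice were wild-type females, of strain C57BL/6 by the labels and C57BL/6J by the study's methods, that were 8 weeks old at the start and were killed at the end of week 5. IgG_CORT mice received corticosterone at 100 µg/ml in drinking water that contained ethanol, IgG_Veh mice received the ethanol water alone, and both groups received injections of an IgG2a isotype antibody at 5 mg/kg into the peritoneum throughout. The other 10 livers, from mice given a neutralizing antibody against the protein ACBP/DBI with or without CORT, were not compared. They entered the choice of tested genes, the scaling of libraries, the mean counts over 20 livers and the estimate of spread. The time of day of killing and whether the mice were fasted are not given in the sources used here. By the study's methods, the strength of the corticosterone solution followed the measured intake of water, so that the average dose per day was held steady. The IgG_Veh and IgG_CORT samples are called vehicle livers 1 to 5 and CORT livers 1 to 5 below.

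Glucocorticoids bind the glucocorticoid receptor, a nuclear receptor that moves to the nucleus and raises or lowers transcription of its target genes. In hepatocytes they are known to favour glucose production and to alter lipid storage and export, and in immune cells they dampen inflammatory and interferon-driven transcription. Whole liver RNA comes mostly from hepatocytes, with smaller parts from Kupffer cells (the resident macrophages), sinusoidal endothelial cells, stellate cells, bile duct cells and lymphocytes. In such bulk samples, fewer cells of a type and less RNA per cell cannot be told apart.

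Between 14934926 and 20299999 reads per liver were counted on genes. Against these totals 3 counts, a floor used only to mark low levels, corresponded to 0.148 to 0.201 CPM (counts per liver scaled to a common library size, the unit of levels below). Genes without counts are given as 0 and entered the test as 0. Hepatocyte genes dominated every library, as the tissue label says. Albumin (Alb) lay at 49300 to 89230 CPM in the vehicle livers and 60610 to 111100 CPM in the CORT livers. The libraries differed in how many weakly expressed genes they caught. Among 1395 genes with a mean of 10 to 20 counts over all 20 livers, 1.86% to 35.4% were at 0 in a vehicle liver and 22.4% to 47.0% in a CORT liver, with the highest shares in CORT liver 1, CORT liver 2 and vehicle liver 4. Among genes with a mean of at least 100 counts, at most 0.168% were at 0 in any of the 10 livers compared. For that reason counts of changed genes are also given below for genes with a mean of at least 100 counts, and the part of the zeros in the results on weaker genes was not tested. On the first principal component of the 10 livers (23.4% of the variance) CORT liver 3 lay nearest to the vehicle livers, and on the second (16.8%) vehicle liver 4 and CORT liver 2 stood apart from the rest.

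**Figure D1:**
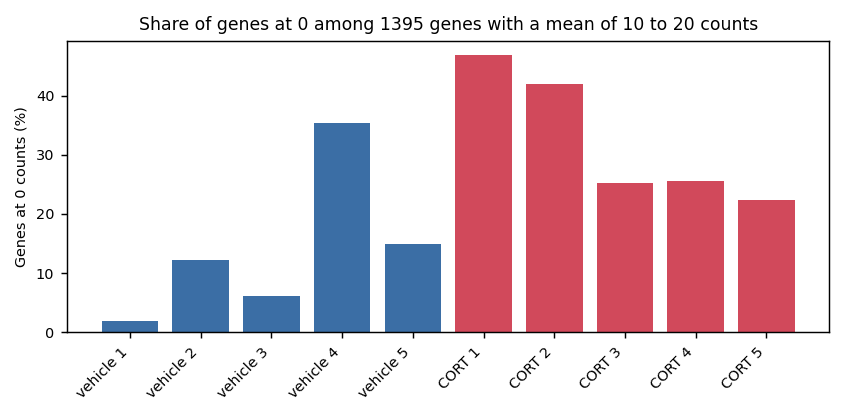
Share of 1395 genes with a mean of 10 to 20 counts that had no count in a liver (vertical axis, percent), with 1 bar per vehicle or CORT liver. The CORT livers ranged from 22.4% to 47.0% and the vehicle livers from 1.86% to 35.4%, with vehicle liver 4 among the CORT livers.

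Of 16071 genes with enough counts to be tested, 82 were higher with CORT, which is 0.51% of the genes tested, and 230 were lower, which is 1.43%. A gene was called when its p from the quasi-likelihood test of edgeR, after Benjamini-Hochberg adjustment, was at most 0.05 and its log2 fold change was at least 1 in size, and together the calls made up 1.94% of the genes tested. The median log2 fold change over all tested genes was 0.00. In 223 of the 312 called genes the 5 CORT livers did not overlap the 5 vehicle livers. The calls rest on the same values, and the share without overlap among all tested genes was not counted. Genes with a mean of at least 100 counts held 78 of the higher and 179 of the lower calls. In 19 of the genes called lower all 5 CORT livers were at 0. By the adjusted p alone, without a limit on the fold change, 215 genes were higher (1.34%) and 299 were lower (1.86%). The words rose and fell below are used of genes whose adjusted p was at most 0.05, and genes that also met the fold limit are named as called. Fold changes are of CORT over vehicle on the log2 scale with their standard error (SE), levels are CPM, and means are given ± SD over the 5 livers of a group. The labels call the samples biological replicates. The p-values weigh each difference against the spread between livers within groups, estimated over all 4 groups of the series.

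The genes were also read in 50 lists, each a pathway or a set of cell type markers, which hold 1254 of the tested genes and 96 of the 312 called ones. Lower calls were found mainly in the lists of interferon-stimulated genes, antigen presentation, Kupffer cell markers and matrix, and higher calls in lists of fatty acid metabolism and conjugation. The calls were not spread evenly over the CORT livers. CORT liver 3 was the CORT liver nearest to the vehicle mean in 84 of the 179 more abundant genes called lower and in 24 of the 78 called higher.

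**Figure D2:**
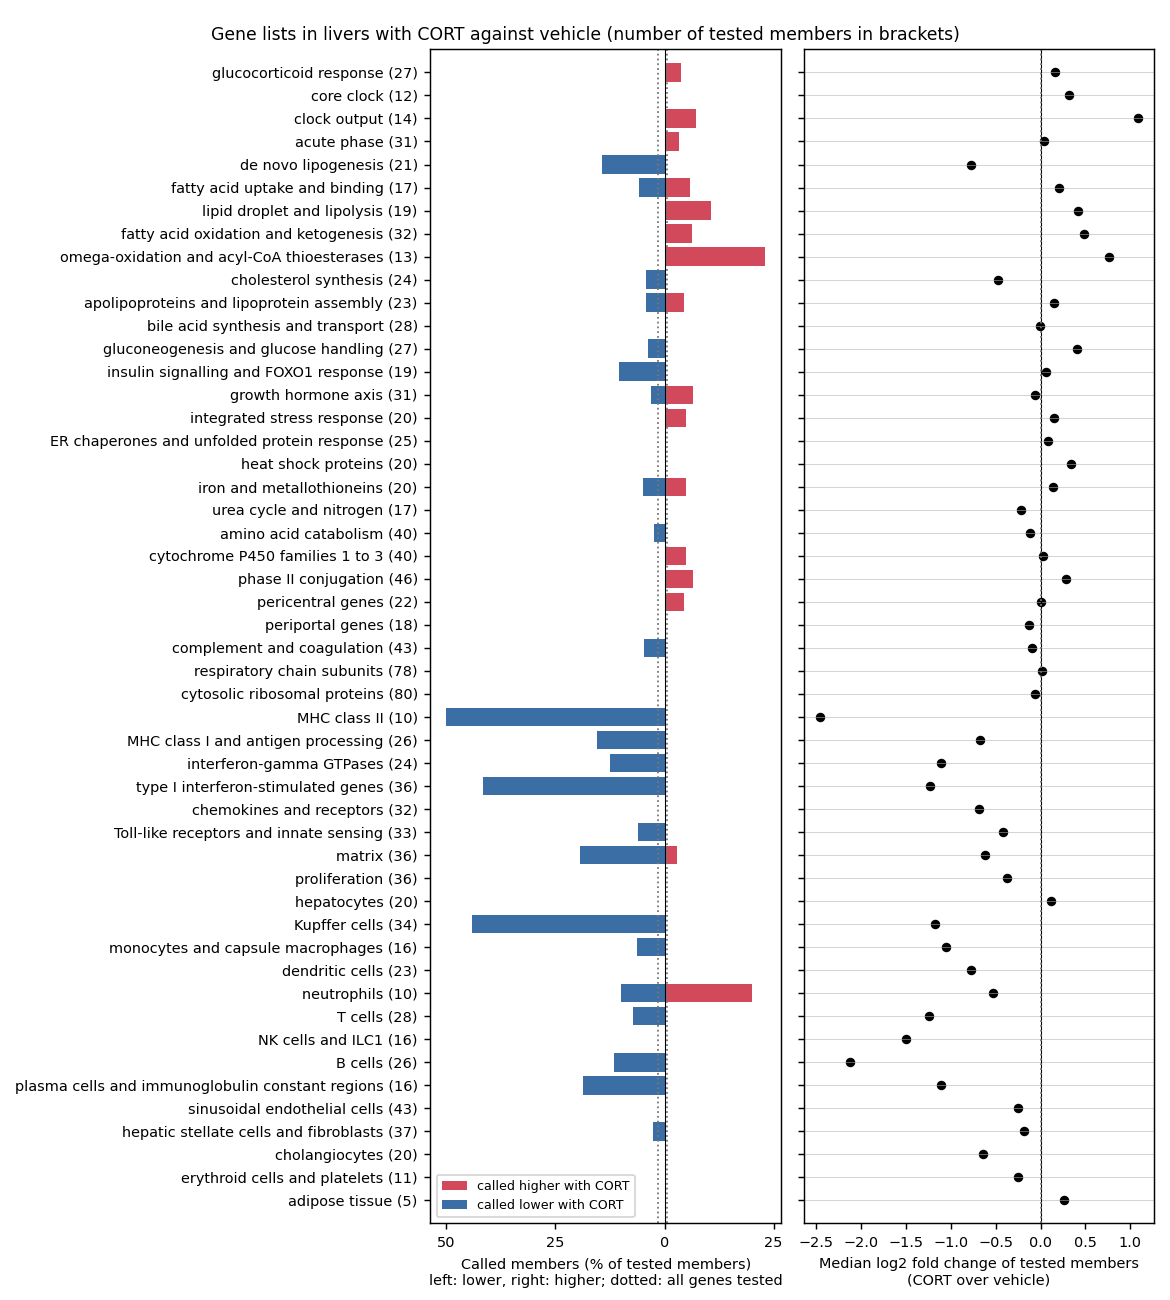
Share of tested members called higher (right) or lower (left) in each list, in percent, with dotted lines at the shares over all tested genes (left panel), and the median log2 fold change of the tested members, CORT over vehicle (right panel). The medians of MHC class II (-2.46), B cells (-2.12), NK cells (-1.503), type I interferon-stimulated genes (-1.24) and Kupffer cells (-1.18) lie to the left, and those of clock output (1.09) and omega-oxidation (0.76) to the right, of the all-gene median of 0.00.

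Of 27 tested glucocorticoid response genes 1 was called, against 0.51% of all tested genes called higher, and their median log2 fold change was 0.17, with 15 members higher and 12 lower. The list held 2 higher calls without CORT liver 3, vehicle liver 1 or vehicle liver 2. The called gene was Fkbp5, a co-chaperone that holds the glucocorticoid receptor in a low-affinity state and is a widely used readout of receptor activity. Fkbp5 stood at 33.2, 45.3, 40.8, 26.1 and 51.1 CPM in vehicle livers 1 to 5 and at 137, 142, 67.6, 177 and 117 CPM in CORT livers 1 to 5. Every CORT liver was above every vehicle liver, with CORT liver 3 the lowest of the CORT livers (log2 fold change 1.70 ± 0.26, adjusted p = 0.000722). Tsc22d3, which encodes the glucocorticoid-induced leucine zipper GILZ, did not pass and its mean was the lower one with CORT, at 74.1 ± 17.3 against 118 ± 34.3 CPM (adjusted p = 0.384). The receptor gene Nr3c1 was at 48.9 ± 7.11 CPM with vehicle and 48.5 ± 9.75 CPM with CORT (log2 fold change -0.01 ± 0.17, adjusted p = 0.984). Hsd11b1, whose enzyme regenerates active glucocorticoid within the hepatocyte, lay at 645 to 811 CPM with vehicle and 814 to 1164 CPM with CORT, without overlap, but missed the threshold (log2 fold change 0.52 ± 0.18, adjusted p = 0.112). Tat and Tdo2, the tyrosine and tryptophan catabolic genes that are classic acute glucocorticoid targets, did not pass either (adjusted p = 0.537 and 0.33).

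The core activators and repressors of the circadian clock form a feedback loop, and its output factors Dbp, Tef and Hlf carry the rhythm to metabolic genes. Of 12 core clock genes none was called (median 0.31). Of 14 clock output genes 1 was called higher, and 13 of the 14 were on the higher side with a median of 1.09. Without CORT liver 3 the clock output list held 2 higher calls. Hlf, which encodes the hepatic leukaemia factor, was at 26.4, 22.5, 16.4, 17.2 and 20.4 CPM with vehicle and 40.2, 30.9, 44.0, 56.1 and 67.2 CPM with CORT. The groups did not overlap (log2 fold change 1.21 ± 0.21, adjusted p = 0.00098). Dbp differed far more among CORT livers than among vehicle livers, at 18.7, 22.2, 144, 40.4 and 114 CPM against 5.42 to 23.5 CPM, and did not pass (adjusted p = 0.306). Arntl, which encodes the activator BMAL1, was at 28.2 to 40.6 CPM with vehicle and at 21.6, 17.7, 11.4, 25.2 and 5.80 CPM with CORT, so the groups did not overlap, yet the test did not pass (adjusted p = 0.21). The 2 CORT livers with the most Dbp, 3 and 5, were those with the least Arntl. Nampt, the rate-limiting enzyme of NAD salvage and a clock-driven gene, was singled out after its values were seen and rose from 44.2 ± 7.72 to 78.3 ± 29.6 CPM (adjusted p = 0.0231). Per1, a direct target of the receptor as well as a clock repressor, was at 5.98 to 26.1 CPM with CORT and 9.95 to 80.2 CPM with vehicle (adjusted p = 0.544). Since the hour of killing is not given, a difference in clock phase and a difference in level cannot be told apart.

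Among the lipid lists, omega-oxidation and acyl-CoA thioesterases had the highest share of members called higher, 3 of 13 tested, with a median of 0.76. Cytochromes of the Cyp4a family start omega-oxidation by hydroxylating the far end of a fatty acid, and they are standard targets of the fatty acid sensor PPARα. Cyp4a10 stood at 373, 252, 355, 205 and 223 CPM in the vehicle livers and at 1254, 948, 1075, 972 and 1954 CPM in the CORT livers. All CORT livers lay above all vehicle livers, by 4.41-fold in the means (log2 fold change 2.14 ± 0.30, adjusted p = 0.000294). Cyp4a14 was called at 2.24 ± 0.47 (adjusted p = 0.0136) and Cyp4a31 at 2.30 ± 0.42 (adjusted p = 0.00206), each without overlap. Cyp4a10 shares 11.02% of its 100-base words with Cyp4a32, so reads of the family members can be split between them. Aldh3a2, the fatty aldehyde dehydrogenase that works downstream of these cytochromes, was named after its values were seen and rose from 204 ± 30.2 to 346 ± 138 CPM (adjusted p = 0.0315). The list held 5 calls without CORT liver 4.

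Of 32 genes of fatty acid oxidation and ketogenesis, 29 were on the higher side, with a median of 0.49; 2 were called and 7 rose by the adjusted p. Vnn1, a pantetheinase of coenzyme A turnover, was at 19.7 to 27.6 CPM with vehicle and at 75.7, 45.8, 177, 42.7 and 156 CPM with CORT (log2 fold change 2.08 ± 0.38, adjusted p = 0.00392). Fgf21, the fasting-induced hepatokine, was called at 3.77 ± 0.95 (adjusted p = 0.0374), with CORT liver 1 at 61.8 CPM and the other CORT livers at 7.67 to 11.1 CPM. Its call was lost without CORT liver 1 and without any one of the 5 vehicle livers (highest adjusted p = 0.0957). Rises below the fold limit, in genes chosen after their values were seen, included those of Acadm, the medium-chain acyl-CoA dehydrogenase (0.70 ± 0.16), Slc25a20, the carnitine-acylcarnitine carrier (0.84 ± 0.20), and the peroxisomal enzymes Hsd17b4 (0.71 ± 0.19) and Acaa1b (0.78 ± 0.22). Cpt1a, which admits long-chain fatty acids to the mitochondrion, did not pass (0.32 ± 0.21, adjusted p = 0.51).

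Synthesis of fatty acids showed lower transcripts: 18 of 21 genes of de novo lipogenesis were on the lower side, 3 were called lower and none higher, with a median of -0.77. Acss2, which makes cytosolic acetyl-CoA from acetate, was at 601, 523, 622, 604 and 529 CPM with vehicle and at 132, 217, 110.3, 195 and 129 CPM with CORT. The groups lay far apart (log2 fold change -1.88 ± 0.31, adjusted p = 0.00155). Acacb, the acetyl-CoA carboxylase that makes the malonyl-CoA restraining mitochondrial import, was called at -1.54 ± 0.37 (adjusted p = 0.0271). Pnpla3, an SREBP-1c target on lipid droplets, was called at -3.27 ± 0.74 (adjusted p = 0.0225), from 11.1 to 79.2 CPM with vehicle to 2.58 to 8.75 CPM with CORT. By the adjusted p alone, and named after their values were seen, Srebf1, the gene of the SREBP-1 regulator (-0.81 ± 0.22), Acly, the ATP citrate lyase (-0.96 ± 0.22), and the elongase Elovl5 (-0.77 ± 0.18) fell, each without overlap. The abundant desaturase Scd1 was spread widely with CORT, at 497, 2183, 4350, 3901 and 539 CPM against 4834 to 6455 CPM, and did not pass (adjusted p = 0.131). Fasn, fatty acid synthase, was as variable (185 to 982 CPM with CORT, adjusted p = 0.39). Without vehicle liver 4 only 1 lipogenesis call remained, since Acacb (lost also without CORT livers 1 and 4, highest adjusted p = 0.0795) and Pnpla3 (lost also without CORT livers 2, 4 and 5, highest adjusted p = 0.0584) missed the threshold.

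Uptake, binding and storage genes of fatty acids moved in both directions. Of 17 uptake and binding genes 1 was called higher and 1 lower (median 0.20), and of 19 droplet and lipolysis genes 2 were called higher (median 0.42). Cd36, the fatty acid translocase, was at 29.1 to 45.3 CPM with vehicle and at 99.6, 72.4, 130.3, 109.9 and 209 CPM with CORT (log2 fold change 1.68 ± 0.24, adjusted p = 0.000291). Fabp5, a fatty acid binding protein found in macrophages and endothelium as well as hepatocytes, went the other way. It stood at 102, 80.4, 109, 47.6 and 59.6 CPM with vehicle and at 7.46, 8.86, 9.83, 6.00 and 9.80 CPM with CORT, a 9.49-fold lower mean with narrow spread in the CORT livers (log2 fold change -3.25 ± 0.51, adjusted p = 0.00182). The main hepatocyte binding protein, Fabp1, did not pass (3129 ± 658 against 4000.1 ± 1484 CPM, adjusted p = 0.578). Named after their values were seen, the uptake transporter Slc27a2 rose (0.71 ± 0.16, adjusted p = 0.0136), and lipoprotein lipase Lpl (-0.90 ± 0.23, adjusted p = 0.0278) and the acyl-CoA synthetase Acsl5 (-0.66 ± 0.18, adjusted p = 0.0333) fell. Acsl5 overlaps Zdhhc6 on the other strand over 37.3% of its exon bases, and the counting is not stated to use strand. On the droplet, the lipolysis inhibitor G0s2 was called at 1.55 ± 0.32 (adjusted p = 0.0095) and the monoacylglycerol lipase Mgll at 1.09 ± 0.20 (adjusted p = 0.00183), both without overlap. The Mgll call was lost by the fold limit without CORT liver 3 or CORT liver 5, its adjusted p staying at most 0.0109. Plin2, the coat protein that tracks droplet mass, was at 197 to 636 CPM with CORT and 130.2 to 235 CPM with vehicle and did not pass (0.64 ± 0.29, adjusted p = 0.279).

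**Figure D3:**
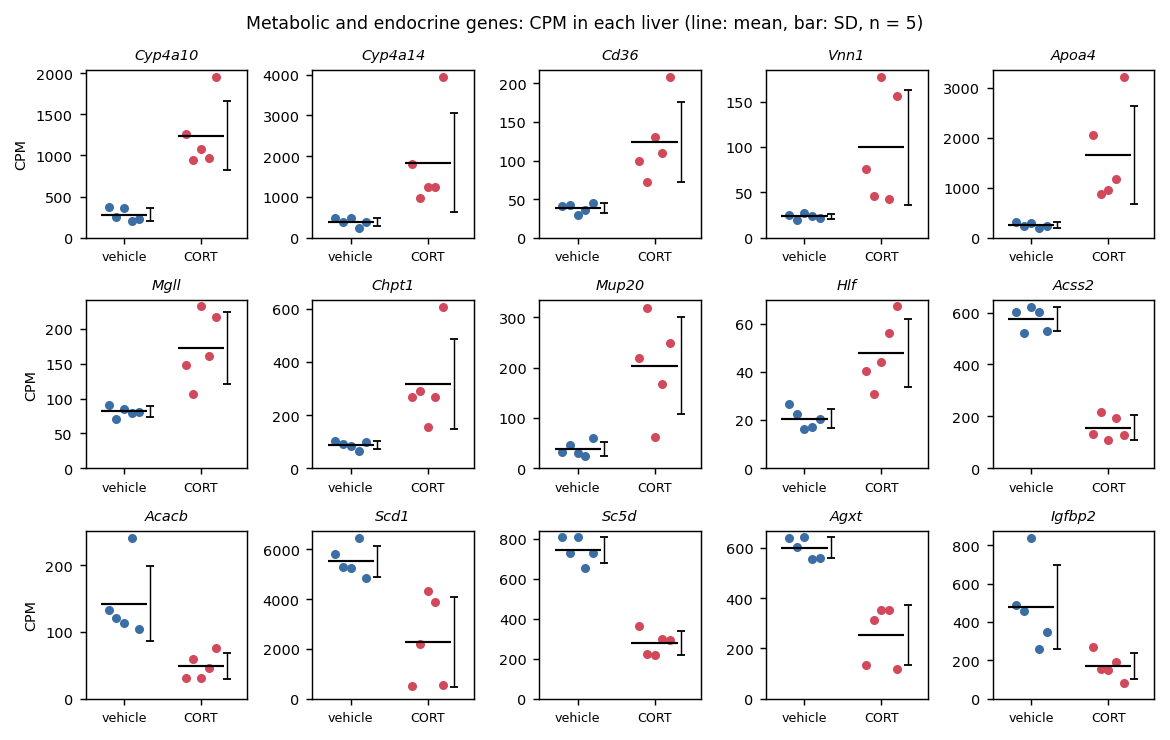
CPM of 15 metabolic and endocrine genes (vertical axes, linear from 0) in each vehicle and CORT liver, with a line at each group's mean and a bar for the SD (n = 5). For Cyp4a10, Cd36 and Hlf the points of the CORT livers lie above those of the vehicle livers, and for Acss2, Scd1 and Sc5d below them, with the points of Scd1 under CORT spread from 497 to 4350 CPM.

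Of 24 cholesterol synthesis genes 19 were on the lower side (median -0.47) and 1 was called. Sc5d, a late desaturase of the pathway, was at 806, 728, 810.2, 652 and 727 CPM with vehicle and at 362, 224, 221, 299.6 and 291 CPM with CORT. It fell in every CORT liver relative to every vehicle liver (log2 fold change -1.41 ± 0.23, adjusted p = 0.000722). Tm7sf2, a sterol reductase named after its values were seen, also fell (-0.75 ± 0.20, adjusted p = 0.0362). Sqle, an epoxidase of the pathway, did not pass (-0.47 ± 0.33, adjusted p = 0.579).

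Among 23 apolipoprotein and lipoprotein assembly genes, 1 was called higher and 1 lower, with a median of 0.15. Apoa4, an apolipoprotein of triglyceride-rich particles, was at 186 to 322 CPM with vehicle and at 2057, 879, 952, 1176 and 3214 CPM with CORT (log2 fold change 2.71 ± 0.44, adjusted p = 0.00178). Gm10680, on the other strand, overlaps 34.8% of the exon bases of Apoa4 and had a like mean count over the 20 livers (10493.2 against 11371), and reads of the pair cannot be told apart without strand. Pltp, the phospholipid transfer protein, was at 196, 243, 291, 244 and 188 CPM with vehicle and at 52.2, 80.2, 132, 88.8 and 53.2 CPM with CORT, without overlap (-1.52 ± 0.25, adjusted p = 0.000762). Pltp overlaps Ctsa over 21.2% of its exon bases. Below the fold limit, Apob, the structural protein of VLDL, rose (0.71 ± 0.20, adjusted p = 0.045). So did the lipoprotein lipase inhibitor Apoc3, named after its values were seen (0.80 ± 0.20, adjusted p = 0.0239). No bile acid gene of 28 was called (median -0.00), and 1 was called lower without CORT liver 1 or vehicle liver 1. Cyp7a1, the rate-limiting enzyme of the classic bile acid pathway, was at 44.2 to 94.9 CPM with vehicle and 11.6 to 88.2 CPM with CORT (adjusted p = 0.733). Of genes named after their values were seen, Cyp27a1, which starts the alternative pathway, fell from 769 ± 53.4 to 448 ± 80.4 CPM (adjusted p = 0.0103), and the sinusoidal uptake carrier Slco1b2 rose from 628 ± 29.0 to 1159 ± 208 CPM (adjusted p = 0.00162), both without overlap. The canalicular phospholipid flippase Abcb4, chosen the same way, rose by less (0.59 ± 0.17, adjusted p = 0.0475).

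Of 27 genes of gluconeogenesis and glucose handling 21 were on the higher side (median 0.41), none was called higher and 1 was called lower. The key gluconeogenic enzymes Pck1 (0.28 ± 0.28, adjusted p = 0.734) and G6pc (0.58 ± 0.72, adjusted p = 0.809) did not pass, and G6pc ranged from 132 to 666 CPM among vehicle livers and from 187 to 690.4 CPM among CORT livers. Pfkfb1, the bifunctional enzyme that makes and breaks down an allosteric activator of glycolysis in liver, was at 41.1, 49.7, 39.03, 70.9 and 35.2 CPM with vehicle and at 16.8, 19.5, 24.3, 18.4 and 18.1 CPM with CORT. It was called lower without overlap (-1.28 ± 0.26, adjusted p = 0.00501). By the adjusted p alone, and named after their values were seen, the pyruvate carboxylase Pcx (0.62 ± 0.17), the glycerol-3-phosphate dehydrogenase Gpd1 (0.86 ± 0.21), the glucose transporter Slc2a2 (0.58 ± 0.16) and the fasting regulator Creb3l3 (0.73 ± 0.18) rose. Gm16537 overlaps Gpd1 over 53.1% of its exon bases.

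In the list of insulin signalling and FOXO1 response, 2 of 19 genes were called lower (median 0.06). Enho, the gene of the peptide adropin, was at 44.0, 54.1, 52.6, 10.5 and 44.2 CPM with vehicle and 5.74 to 14.8 CPM with CORT, with vehicle liver 4 inside the CORT range (-2.27 ± 0.41, adjusted p = 0.00385). Igfbp2, an IGF binding protein that insulin and leptin regulate, fell from 478 ± 220.3 to 169 ± 68.0 CPM (-1.5003 ± 0.32, adjusted p = 0.0115). The insulin receptor Insr (0.08 ± 0.15, adjusted p = 0.881) and its substrate Irs2 (-0.82 ± 0.37, adjusted p = 0.267) did not pass.

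The growth hormone axis, which sets the sexes apart in mouse liver, had 2 genes called higher and 1 lower of 31 (median -0.06). Both higher genes are known as male-predominant in mouse liver, and these mice were female. Of the 31 members 14 were on the higher side and 17 on the lower side. How the sex-biased members moved as a set was not tested. Mup20, the urinary protein darcin, was at 32.1, 45.8, 30.1, 25.1 and 59.2 CPM with vehicle and at 220, 319, 61.8, 168 and 249.5 CPM with CORT (2.40 ± 0.45, adjusted p = 0.00728). Cyp2d9 was at 29.1 to 55.3 CPM with vehicle and at 122, 338, 42.2, 147 and 261 CPM with CORT, where CORT liver 3 lay within the vehicle range (2.18 ± 0.42, adjusted p = 0.00789). Igfbp3, the main carrier of circulating IGF-1, was called lower (38.8 ± 10.9 to 16.1 ± 8.62 CPM, adjusted p = 0.0282), a call lost without CORT livers 2 or 3 or vehicle livers 2, 3 or 5 (highest adjusted p = 0.0799). Igf1 itself (-0.06 ± 0.18, adjusted p = 0.94) and the receptor Ghr (-0.19 ± 0.15, adjusted p = 0.626) did not pass.

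Amino acid catabolism had 1 of 40 genes called lower (median -0.12), and none of 17 urea cycle and nitrogen genes was called (median -0.22). Agxt, the glyoxylate-detoxifying aminotransferase, was at 639, 604, 642, 556 and 561 CPM with vehicle and at 135, 313, 354, 354 and 118 CPM with CORT. Its groups did not overlap (-1.24 ± 0.24, adjusted p = 0.00385). Cbs, which starts the transsulfuration of homocysteine, was named after its values were seen and fell from 642 ± 48.8 to 358 ± 63.1 CPM (adjusted p = 0.00266). Cps1 and Ass1, enzymes of the urea cycle, were more variable with CORT (469 to 2122 and 1193 to 4932 CPM) and did not pass (adjusted p = 0.492 and 0.417). The mitochondrial aspartate-glutamate carrier Slc25a13, chosen after its values were seen, rose (0.57 ± 0.16, adjusted p = 0.0411).

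Drug-metabolizing genes were called in the higher direction alone: 2 of 40 cytochrome P450 genes of families 1 to 3 (median 0.03) and 3 of 46 phase II genes (median 0.29). Sult1e1, the oestrogen sulfotransferase, was nearly silent in vehicle livers, at 0, 2.33, 3.30, 0 and 3.24 CPM, and reached 190.3, 131, 19.3, 249.5 and 128 CPM with CORT (6.32 ± 1.25, adjusted p = 0.0103). CORT liver 3 was again the lowest of the CORT livers and yet far above the vehicle livers. Sult1d1, another cytosolic sulfotransferase, was at 199 to 250.4 CPM with vehicle and at 773, 735, 274, 590.3 and 245 CPM with CORT (1.22 ± 0.25, adjusted p = 0.00523). CORT liver 5 lay within the vehicle range and CORT liver 3 just above it. Ephx1, the microsomal epoxide hydrolase, was called at 1.21 ± 0.32 (adjusted p = 0.0383) with CORT liver 5 at 1102 CPM and the others at 312 to 555 CPM. Papss2, which supplies the sulfate donor that sulfotransferases use, was not in the list and was called lower, from 367 ± 50.5 to 139 ± 25.2 CPM (-1.40 ± 0.23, adjusted p = 0.000762). Cyp2b10, the model target of the receptor CAR, was called at 2.07 ± 0.55 (adjusted p = 0.0467), at 8.52 to 22.5 CPM with vehicle and at 24.8, 48.0, 9.88, 145 and 50.2 CPM with CORT. The gene of CAR, Nr1i3, was singled out after its values were seen and rose from 683 ± 133 to 1315 ± 237 CPM without overlap (0.95 ± 0.17, adjusted p = 0.00155), though Tomm40l, on the other strand, overlaps 75.4% of its exon bases and had nearly the same mean count over the 20 livers (17405.3 against 17614.5). Named likewise, Ugt2b5 (0.87 ± 0.19) and Ugt2b35 (0.84 ± 0.22), which attach glucuronic acid, rose, and Ugt2b5 shares 15.7% of its 100-base words with Ugt2b38. The Ephx1 call was lost without CORT livers 1 or 5 or any one vehicle liver (highest adjusted p = 0.107), the Cyp2b10 call without CORT livers 2, 4 or 5 or vehicle livers 2, 3, 4 or 5 (highest adjusted p = 0.126), and without CORT liver 3 the phase II list held 6 calls.

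Zonation markers, which distinguish hepatocytes near the central vein from those near the portal vein, were close to the all-gene median: 0.01 for 22 pericentral and -0.13 for 18 periportal genes. The single call was Rnf43, a Wnt target that degrades Frizzled receptors. It was at 10.5 to 22.6 CPM with vehicle and at 22.02, 48.2, 50.9, 23.1 and 41.4 CPM with CORT (1.06 ± 0.25, adjusted p = 0.0181), and lost its call without CORT livers 2 or 3 or vehicle livers 2 or 4 (highest adjusted p = 0.0597). The pericentral markers Glul (0.39 ± 0.22, adjusted p = 0.41) and Cyp2e1 (0.14 ± 0.24, adjusted p = 0.878) did not pass, nor did Cyp1a2 (-0.53 ± 0.23, adjusted p = 0.24).

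None of 25 endoplasmic reticulum chaperone and unfolded protein response genes (median 0.08) and none of 20 heat shock genes (median 0.34) was called, and in the integrated stress response list, 20 tested genes with a median of 0.15, the only call was Fgf21. Atf4 (-0.00 ± 0.18) and the chaperone Hspa5 (0.15 ± 0.28) did not pass. Of 31 acute phase genes 1 was called (median 0.04), which became 4 without CORT liver 3, 3 with DESeq2 and 2 among genes with a mean of at least 100 counts tested alone. That gene, Lcn2, encodes the siderophore-binding protein lipocalin 2 and was at 14.7 to 22.8 CPM with vehicle and at 301, 349.8, 42.8, 547 and 303 CPM with CORT (4.07 ± 0.69, adjusted p = 0.00358). Lcn2 also stands in the iron list and in the neutrophil list. The serum amyloid genes Saa1 (0.36 ± 0.65, adjusted p = 0.885) and Saa2 (-0.54 ± 0.77, adjusted p = 0.841), which share sequence, did not pass. In the iron and metallothionein list Id1, a target of BMP signalling, was called lower, at 11.1, 43.2, 44.8, 45.6 and 40.6 CPM with vehicle and 7.56 to 19.3 CPM with CORT (-1.47 ± 0.31, adjusted p = 0.00735), with vehicle liver 1 inside the CORT range. The metallothioneins Mt1 and Mt2, which glucocorticoids can induce, did not pass (adjusted p = 0.892 and 0.539).

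Complement and coagulation genes had 2 of 43 called lower (median -0.09). C6, a part of the membrane attack complex, was at 12.8 to 25.1 CPM with vehicle and 3.87 to 11.01 CPM with CORT (-1.30 ± 0.25, adjusted p = 0.00319). Cfp, the gene of properdin, which leucocytes rather than hepatocytes make, fell from 62.5 ± 22.6 to 26.0 ± 10.7 CPM (-1.26 ± 0.25, adjusted p = 0.00518). The hepatocyte genes C3 (0.31 ± 0.23) and F2, prothrombin (-0.04 ± 0.22), did not pass, and C1s1, named after its values were seen, rose (0.62 ± 0.16, adjusted p = 0.0344).

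Genes of antigen presentation and of the interferon response were lower with CORT, list by list. MHC class II molecules present peptides from outside the cell and are made by macrophages, dendritic cells and B cells. MHC class I molecules present peptides from inside every cell, type I interferon drives antiviral genes through STAT and IRF factors, and interferon-γ drives GTPases that attack intracellular parasites. Of 10 tested MHC class II genes 5 were called lower, all 10 were on the lower side, and the median was -2.46. Of 36 tested type I interferon-stimulated genes 15 were called lower, 20 fell by the adjusted p, and all 36 were on the lower side (median -1.24). Of 24 interferon-γ GTPases and related genes 3 were called lower, 7 fell by the adjusted p, and all 24 were on the lower side (median -1.11). Of 26 MHC class I and antigen processing genes 4 were called lower, 9 fell, and 25 were on the lower side (median -0.68). Among all genes 1.43% were called lower. At a mean of at least 100 counts the counts were 3 of 4, 14 of 30, 2 of 15 and 4 of 23, in that order of lists, with medians of -2.41, -1.23, -0.87 and -0.56.

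The sequences upstream of the called genes are shown because interferon-driven genes are known to share a control sequence, the interferon-stimulated response element (ISRE), searched here as TTTCNNTTTC on both strands in 300 bases of RefSeq promoter (250 bases before to 50 after the start, build GRCm38.p6). An ISRE match stood in 3.44% of 32851 promoters. Among type I genes with a RefSeq promoter, 4 of 8 called ones held a match, as did 10 of 16 that were tested and not called. For the interferon-γ list it was 3 of 3 called and 9 of 12 not called. Matches overlap where GAAA repeats continue. Capitals mark the matches, and the stretches are written 5′ to 3′ on the gene's strand.
Ifit3, chr19:34583333-34583456, plus strand: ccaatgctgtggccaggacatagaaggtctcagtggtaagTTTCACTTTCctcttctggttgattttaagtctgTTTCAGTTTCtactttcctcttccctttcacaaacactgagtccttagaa
Isg15, chr4:156200835-156200936, minus strand: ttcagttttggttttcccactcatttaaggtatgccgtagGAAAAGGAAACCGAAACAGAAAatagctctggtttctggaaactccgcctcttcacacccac
Rsad2, chr12:26456523-26456612, minus strand: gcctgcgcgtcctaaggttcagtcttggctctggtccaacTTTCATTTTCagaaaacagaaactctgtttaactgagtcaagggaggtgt
Oas1g, chr5:120887614-120887671, minus strand: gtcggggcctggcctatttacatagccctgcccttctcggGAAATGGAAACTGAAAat
Gbp2b, chr3:142594670-142594759, plus strand: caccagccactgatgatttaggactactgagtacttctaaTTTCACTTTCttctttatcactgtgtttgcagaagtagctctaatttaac
Gbp3, chr3:142559959-142560043, plus strand: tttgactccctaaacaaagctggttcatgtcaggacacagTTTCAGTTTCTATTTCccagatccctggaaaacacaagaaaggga
Gbp7, chr3:142530243-142530332, plus strand: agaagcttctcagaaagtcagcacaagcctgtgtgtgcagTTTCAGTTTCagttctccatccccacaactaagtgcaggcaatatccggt
In Isg15, Oas1g and Gbp3 neighbouring matches overlap and share a repeat unit, while Ifit3 has a pair of separate matches. MHC class II promoters instead share an enhanceosome whose last part is a CCAAT box, which reads ATTGG on the other strand. A match stood in 37.4% of all promoters, in all 3 called class II genes with a promoter in the table and in all 4 that were tested and not called.
H2-Aa, chr17:34287827-34287911, minus strand: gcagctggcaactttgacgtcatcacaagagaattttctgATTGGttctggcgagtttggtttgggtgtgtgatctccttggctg
H2-DMb1, chr17:34153090-34153174, plus strand: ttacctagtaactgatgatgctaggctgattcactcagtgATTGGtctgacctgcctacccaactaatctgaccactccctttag
H2-Oa, chr17:34092296-34092378, plus strand: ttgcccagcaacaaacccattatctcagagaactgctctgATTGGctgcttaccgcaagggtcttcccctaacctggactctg
These matches are descriptions of letters and do not show binding. They were found in members that were not called as well as in those that were.

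Of the class II genes, H2-Aa, the α chain of I-A, was at 37.0, 47.0, 34.3, 55.4 and 52.4 CPM with vehicle and at 6.36, 8.66, 14.7, 11.7 and 2.06 CPM with CORT (-2.37 ± 0.44, adjusted p = 0.00487). The β chain H2-Ab1 (-2.53 ± 0.34, adjusted p = 0.000291) and the invariant chain Cd74, which chaperones them (-2.44 ± 0.47, adjusted p = 0.00796), fell with it to a like degree. In all of these the groups did not overlap, and CORT liver 3 had the most of each among the CORT livers. H2-DMb1, which helps load peptides, was called at -2.49 ± 0.60 (adjusted p = 0.0186) and lost the call without vehicle liver 4 (adjusted p = 0.0605). H2-DMb1 shares 11.3% of its 100-base words with H2-DMb2. The summed level of the class II list was 200.9 to 278.7 CPM in the vehicle livers and 16.8 to 89.4 CPM in the CORT livers. Without CORT liver 3, 8 class II genes were called, and without the 3 livers with most zeros (CORT livers 1 and 2, vehicle liver 4) 1 was called.

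The median of the class I list was nearer to 0 than that of class II. H2-Q7, a non-classical class I gene, was at 100.1, 90.2, 117, 129 and 92.1 CPM with vehicle and at 12.5, 25.6, 47.9, 46.1 and 15.3 CPM with CORT (-1.84 ± 0.28, adjusted p = 0.000722). Psmb8, a subunit of the immunoproteasome that cuts peptides for class I, was called at -1.13 ± 0.22 (adjusted p = 0.00385), and H2-T10 at -1.27 ± 0.30 (adjusted p = 0.0153). The classical genes are far more abundant and moved by less than the fold limit. H2-D1 fell from 715 ± 83.1 to 451 ± 78.1 CPM (adjusted p = 0.0411). H2-K1 went from 1944 ± 46.5 to 1377 ± 222 CPM without overlap and did not pass (adjusted p = 0.0825). Without CORT liver 3 the class I list held 8 calls, and without vehicle liver 4 H2-T10 was no longer called (adjusted p = 0.0677).

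Of the interferon-γ GTPases whose promoters are shown, Gbp2b was at 6.75, 12.7, 5.38, 15.97 and 3.06 CPM with vehicle and at 0.958, 1.15, 2.19, 0.456 and 0 CPM with CORT (-3.17 ± 0.62, adjusted p = 0.00421). Gbp3 was called at -2.03 ± 0.42 (adjusted p = 0.01) and Gbp7 at -1.24 ± 0.30 (adjusted p = 0.0185), again without overlap. These guanylate-binding proteins coat vacuoles that hold parasites. Gbp2 (-1.91 ± 0.78, adjusted p = 0.202), at a mean of 50.4 counts, did not pass. Igtp fell (-0.89 ± 0.24, adjusted p = 0.0417) although CORT liver 3, at 66.0 CPM, lay within the vehicle range of 48.7 to 70.8 CPM. Without CORT liver 3 the list held 10 calls, without CORT liver 2 it held 5, and without the 3 livers with most zeros it held none. Gbp7 lost its call without CORT liver 1 or 4 (highest adjusted p = 0.052). The summed level of the list was 688.1 to 846.3 CPM with vehicle and 396.5 to 708.2 CPM with CORT, so the ranges overlapped.

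Among the type I interferon-stimulated genes, Ifit3, which binds viral RNA complexes, was at 26.9, 26.9, 33.3, 39.9 and 28.2 CPM with vehicle and at 7.32, 4.30, 15.8, 6.45 and 4.00 CPM with CORT (-2.03 ± 0.32, adjusted p = 0.000722). Ifit3 shares 16.7% of its 100-base words with Ifit3b. The ubiquitin-like modifier Isg15 was at 15.5 to 22.8 CPM with vehicle and 3.08 to 11.4 CPM with CORT, without overlap (-1.62 ± 0.39, adjusted p = 0.0219). Its protease Usp18 (-1.71 ± 0.44, adjusted p = 0.035), the apoptosis factor Xaf1 (-1.63 ± 0.34, adjusted p = 0.00786), the antiviral enzymes Rsad2 (-1.48 ± 0.41, adjusted p = 0.0403) and Oas1g (-1.58 ± 0.39, adjusted p = 0.0209), and Irf7, the factor that amplifies the response (-1.24 ± 0.25, adjusted p = 0.00477), were called as well. In Irf7, as in Ifit1 (adjusted p = 0.0763), CORT liver 3 sat within the vehicle range, at 65.7 CPM against 56.5 to 109 CPM. The summed level of the list was 1359 to 1678 CPM with vehicle and 696 to 1109 CPM with CORT, without overlap. The count of 15 calls fell to 8 without CORT liver 4, to 8 without vehicle liver 4, to 9 without vehicle liver 3 and to 2 without the 3 livers with most zeros. Isg15 lost its call without CORT livers 1, 2 or 4, Usp18 without CORT livers 2, 4 or 5 or vehicle livers 2, 3 or 4, Rsad2 without CORT livers 2, 3 or 4 or vehicle livers 2, 3, 4 or 5, and Oas1g without CORT livers 1 or 4 or vehicle livers 3 or 4, with highest adjusted p of 0.0561, 0.0963, 0.107 and 0.0714.

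**Figure D4:**
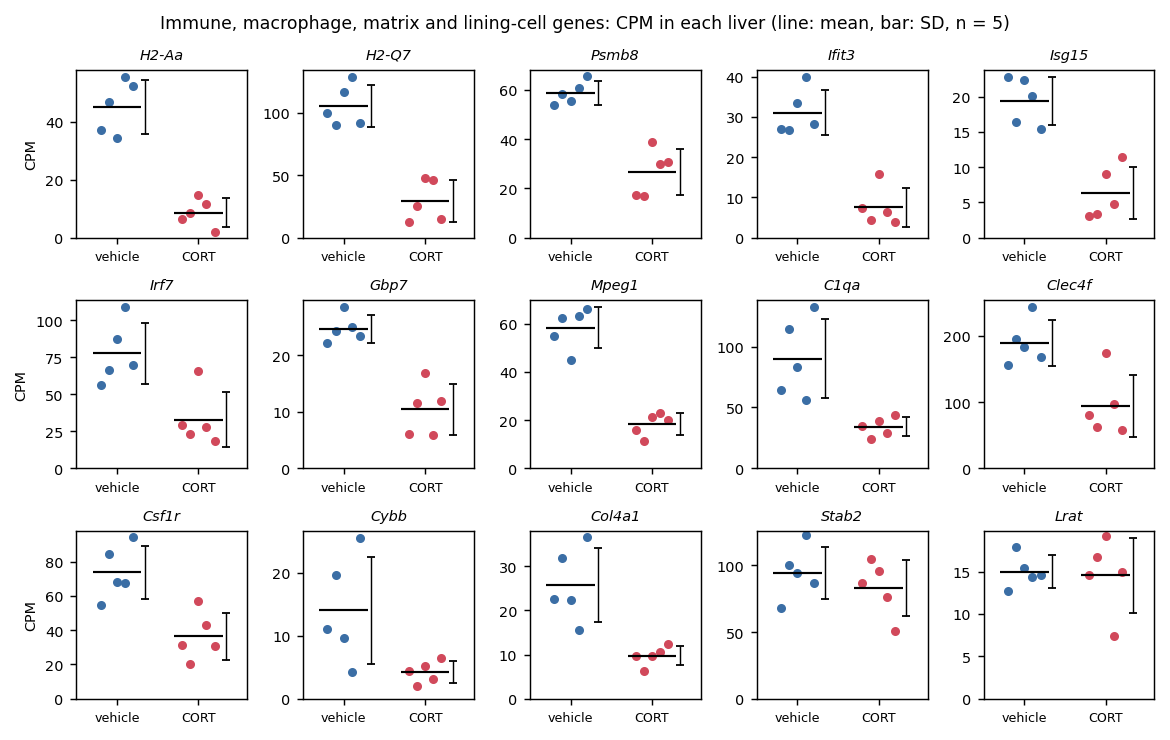
CPM of 15 immune, macrophage, matrix and lining-cell genes (vertical axes, linear from 0) in each vehicle and CORT liver, with a line at each group's mean and a bar for the SD (n = 5). For H2-Aa, Ifit3 and Mpeg1 all 5 CORT livers lie below all 5 vehicle livers, for Irf7 and Clec4f 1 CORT liver reaches into the vehicle range, and for Stab2 and Lrat the groups overlap.

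Kupffer cell markers were lower as a whole: all 34 tested markers were on the lower side, 15 were called lower (14 of 31 at a mean of at least 100 counts), and the median was -1.18. The summed level of the list was 1095 to 1932 CPM in the vehicle livers and 520.3 to 985.2 CPM in the CORT livers. Mpeg1, the macrophage pore-forming protein perforin-2, was at 55.1, 62.6, 45.02, 63.4 and 66.3 CPM with vehicle and at 16, 11.5, 21.3, 23.1 and 19.9 CPM with CORT. The groups lay well apart (-1.67 ± 0.19, adjusted p = 2.98e-05). The complement chains C1qa (-1.40 ± 0.25, adjusted p = 0.00182) and C1qc (-1.83 ± 0.39, adjusted p = 0.0121), which macrophages make, the oxidase subunit Cybb (-1.73 ± 0.37, adjusted p = 0.00786) and Spic, a factor of iron-recycling macrophages (-1.87 ± 0.47, adjusted p = 0.0266), were called too. The markers Clec4f, Vsig4 and Csf1r were just past the fold limit. Clec4f, a lectin receptor of Kupffer cells, was at 155, 195, 183, 244 and 169 CPM with vehicle and at 79.7, 62.8, 174, 96.9 and 57.3 CPM with CORT (-1.01 ± 0.24, adjusted p = 0.015). CORT liver 3 was within the vehicle range for Clec4f. Vsig4, the complement receptor of these cells (-1.10 ± 0.27, adjusted p = 0.0197), and Csf1r, the receptor they need to survive (-1.02 ± 0.20, adjusted p = 0.00455), were called as well. The count of 15 was 9 without CORT liver 1, 6 without vehicle liver 2, 7 without vehicle liver 5 and 6 without the 3 livers with most zeros. Clec4f lost its call without CORT livers 1, 2 or 5 or vehicle livers 2 or 4, Csf1r without CORT livers 1, 2 or 5 or vehicle livers 2 or 5, Vsig4 without CORT liver 2 or vehicle livers 2 or 5, and Spic without CORT liver 5 or vehicle livers 2, 4 or 5, with highest adjusted p of 0.0503, 0.0188, 0.0759 and 0.0806, so that Csf1r was lost by the fold limit alone.

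Of 16 monocyte and capsule macrophage genes 1 was called lower (median -1.05), the integrin Itgal, which T cells carry as well (21.9 ± 8.08 to 8.76 ± 3.44 CPM, adjusted p = 0.0095). That median was -0.52 for the 4 genes at a mean of at least 100 counts. The summed level of the monocyte list was 691.4 to 959.1 CPM with vehicle and 811.9 to 1404 CPM with CORT. No dendritic cell gene of 23 was called, although all 23 were on the lower side with a median of -0.78, which was -0.14 for the 7 at a mean of at least 100 counts. There were 2 dendritic cell calls without CORT liver 3 or CORT liver 4, and 1 without CORT liver 2 or vehicle liver 1. Of 10 tested neutrophil genes 2 were called higher, Lcn2 and G0s2, both of which hepatocytes also express, and 1 was called lower, Csf3r, the G-CSF receptor (-1.08 ± 0.27, adjusted p = 0.0268). Ly6g, the defining neutrophil surface marker, was at 0 in all 10 livers, and 12 of the 22 neutrophil genes had too few counts to be tested. The summed level of the neutrophil list was 287.6 to 449.7 CPM with vehicle and 709.8 to 1564 CPM with CORT, a list to which Lcn2 and G0s2 belong. The median of its tested genes was -0.53, with 4 on the higher side and 6 on the lower side, and it was 1.02 for the 6 at a mean of at least 100 counts. In the list of Toll-like receptors and innate sensing, 2 of 33 were called lower (median -0.42): Ly86, a partner of the receptor RP105 (-1.92 ± 0.39, adjusted p = 0.00501), and Tlr1 (-1.68 ± 0.45, adjusted p = 0.0362). None of its 12 genes at a mean of at least 100 counts was called (median -0.04). Without the 3 livers with most zeros the list held no call. Cd86, a costimulatory ligand of antigen-presenting cells that stood in no list, was called at -2.51 ± 0.52 (adjusted p = 0.007), at 3.65 to 11.7 CPM with vehicle and 0.261 to 2.90 CPM with CORT. None of 32 chemokine and receptor genes was called, with a median of -0.69 in all and -0.02 in the 9 at a mean of at least 100 counts. Without CORT liver 3 there were 3 lower calls in that list, and without CORT liver 2 there was 1. The Csf3r call was lost without CORT livers 1, 2 or 4 or vehicle livers 2, 4 or 5, and that of Tlr1 without the same livers (highest adjusted p = 0.0807 and 0.12).

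Lymphocyte markers were weak in these livers, so that most had few counts. The summed level of the T cell list was 115.2 to 150.5 CPM with vehicle and 63.8 to 103.5 CPM with CORT, and that of the NK cell and ILC1 list 43.5 to 60.1 and 12.7 to 33.8 CPM. Neither pair of ranges overlapped. The ranges of the B cell list did (84.38 to 123.9 and 42.64 to 84.45 CPM), as did those of the plasma cell list (455.0 to 649.6 and 247.4 to 501.0 CPM). Of 28 T cell genes 2 were called lower (median -1.24), of 16 NK cell genes none (median -1.503), and of 26 B cell genes 3 (median -2.12). The NK cell count of 0 became 4 without CORT liver 3 and 1 without CORT liver 2 or 4. Those medians were -0.53 for the 6 T cell genes and -0.52 for the 4 B cell genes at a mean of at least 100 counts, which 1 NK cell gene reached. In the defining T cell genes Cd3d and Cd3g, 4 and 3 of the CORT livers were at 0 and none of the vehicle livers, though neither passed (adjusted p = 0.146 and 0.312). Cd3e and Cd247, of the same receptor complex, each had 2 CORT livers at 0 and did not pass either (adjusted p = 0.833 and 0.999). At the same time the 5 CORT livers, with vehicle liver 4, had the highest shares of zeros among weak genes, whose part in this was not tested. Gimap3, a GTPase of lymphocyte survival, was at 7.67 to 20.9 CPM with vehicle and at 6.22, 1.85, 2.83, 0.847 and 0.0644 CPM with CORT (-2.48 ± 0.54, adjusted p = 0.0122). Cd22, a B cell co-receptor, was called at -2.41 ± 0.59 (adjusted p = 0.0224). Of 16 plasma cell and immunoglobulin constant genes 3 were called lower (median -1.11), and 4 of the 16 were on the higher side. Ighm, the heavy chain of IgM, was at 49.6, 21.9, 29.7, 37.4 and 27.9 CPM with vehicle and at 8.69, 5.00, 6.57, 2.22 and 5.87 CPM with CORT (-2.55 ± 0.43, adjusted p = 0.0017). Igkc, the κ light chain constant region, was called (-1.71 ± 0.44, adjusted p = 0.0355), but kept the call only without CORT liver 1 among the 10 fits that leave out a liver (highest adjusted p = 0.0893). The plasma cell genes Jchain, the chain that joins antibody units (0.06 ± 0.68, adjusted p = 0.983), and Mzb1, an antibody-folding chaperone (1.21 ± 1.09, adjusted p = 0.697), did not pass and had their means on the higher side. The plasma cell count of 3 was 1 without CORT liver 2 or 5 or vehicle liver 4 or 5, the B cell count of 3 was 5 without CORT liver 3 and 1 without CORT liver 5 or vehicle liver 4, and Cd22 lost its call without CORT liver 5 or vehicle livers 2 or 4 (highest adjusted p = 0.0617).

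**Figure D5:**
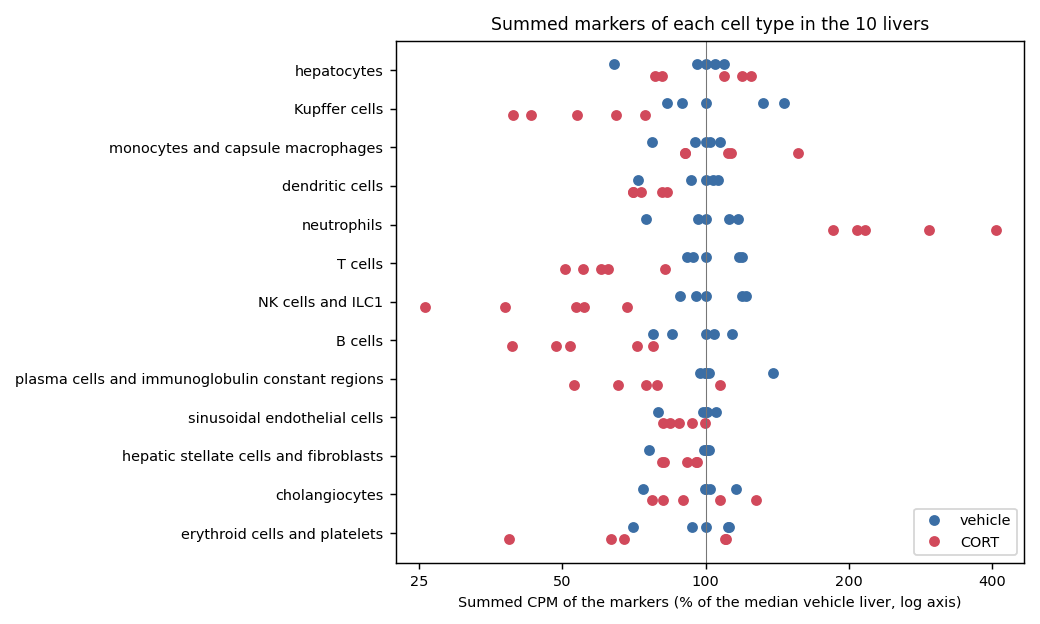
Summed CPM of the marker genes of each cell type in each vehicle and CORT liver (points), as percent of the median vehicle liver on a log axis. Kupffer cell sums were 1095 to 1932 CPM with vehicle and 520.3 to 985.2 CPM with CORT, while hepatocyte, endothelial and stellate cell sums overlapped between the groups.

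None of 43 sinusoidal endothelial genes was called, and 34 of them were on the lower side, with a median of -0.25 that ranged from -0.37 to -0.18 over 20 alternatives. Without CORT liver 5 or vehicle liver 1 there was 1 lower call. The the scavenger receptor Stab2 (-0.19 ± 0.20, adjusted p = 0.765) and the lectin Clec4g (0.01 ± 0.18, adjusted p = 0.984) did not pass. By the adjusted p alone, and named after their values were seen, the junction protein Pecam1 fell (-0.93 ± 0.26, adjusted p = 0.0463) and the lipid phosphatase Plpp3 rose (0.70 ± 0.20, adjusted p = 0.0434). Of 37 stellate cell and fibroblast genes 1 was called lower, and 26 were on the lower side (median -0.19). Lrat, which stores retinol as esters and defines quiescent stellate cells (-0.04 ± 0.28, adjusted p = 0.974), and Reln (-0.22 ± 0.18, adjusted p = 0.645) did not pass. Prelp, a matrix proteoglycan named after its values were seen, fell (-0.86 ± 0.23, adjusted p = 0.0322). No gene was called among 20 cholangiocyte genes (median -0.64), 11 erythroid and platelet genes (median -0.25), 5 adipose genes (median 0.26) and 20 hepatocyte genes (median 0.12). The cholangiocyte median was -0.05 for the 5 genes at a mean of at least 100 counts. The adipocyte hormone gene Lep was at 0 in all 10 livers.

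Of 36 matrix genes, the collagens and their partners around the cells, 7 were called lower and 1 higher, with a median of -0.62. The summed level of the list overlapped, at 2133 to 2617 CPM with vehicle and 2251 to 3009 CPM with CORT. The falls included basement membrane and fibrillar parts. Nid2, the linker protein nidogen-2, was at 22.3, 24.2, 14.7, 42.4 and 32.5 CPM with vehicle and at 9.23, 4.66, 9.94, 4.04 and 2.64 CPM with CORT (-2.15 ± 0.35, adjusted p = 0.000853). Col4a1, of the basement membrane, was at 15.6 to 36.5 CPM with vehicle and 6.36 to 12.4 CPM with CORT (-1.40 ± 0.23, adjusted p = 0.000853). Col14a1, which binds fibril surfaces, was at 38.3 to 44.7 CPM with vehicle and 12.8 to 21.0 CPM with CORT, with the tightest groups of the list's named genes (-1.23 ± 0.20, adjusted p = 0.000853). Col6a3 (-1.33 ± 0.34, adjusted p = 0.0281) and the fibrillar Col3a1 (-1.11 ± 0.26, adjusted p = 0.0163) were called, and Col1a1 (-1.33 ± 0.49, adjusted p = 0.148) was not. The called rise was that of Col27a1, at 54.1, 70.9, 75.2, 90.3 and 70.7 CPM with vehicle and 142, 147, 118, 92.2 and 226 CPM with CORT (1.01 ± 0.24, adjusted p = 0.0178). Outside the list the crosslinking enzyme Loxl4 was called at -2.30 ± 0.53 (adjusted p = 0.0143). Without vehicle liver 2 or vehicle liver 5 the lower calls of the list numbered 4. Col3a1 lost its call without vehicle livers 2 or 5, Col6a3 without CORT liver 1 or vehicle livers 2, 4 or 5, and Col27a1 without CORT livers 2 or 5 or vehicle livers 1, 2 or 5, with highest adjusted p of 0.0881, 0.0934 and 0.0559.

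Beyond the lists, the 12 largest rises by fold were taken among called genes whose groups did not overlap. Lack of overlap in them was thus set by the choice. They were led by Extl1, a glycosyltransferase of the exostosin family, at 3.65 to 7.01 CPM with vehicle and at 23.2, 57.1, 34.4, 32.3 and 39.3 CPM with CORT (2.71 ± 0.35, adjusted p = 0.000231). Inhbe, the subunit of the liver-derived hormone activin E, was at 10.3, 15.1, 13.4, 8.89 and 17.8 CPM with vehicle and at 37.1, 50.6, 77.2, 55.3 and 95.6 CPM with CORT (2.27 ± 0.32, adjusted p = 0.000431). Neither gene's groups overlapped, as the choice required. A pair of the rises are enzymes of glycerolipid synthesis: Chpt1, which makes phosphatidylcholine (87.7 ± 14.5 to 316 ± 169.6 CPM, adjusted p = 0.000722), and Agpat9, a glycerol-3-phosphate acyltransferase (6.89 ± 2.57 to 19.2 ± 9.41 CPM, adjusted p = 0.0108). The zinc importer Slc39a5 (1.99 ± 0.30), the glycine transporter Slc6a9 (1.63 ± 0.23), the adenosine receptor Adora1 (1.87 ± 0.30), the Golgi GTPase Rab30 (1.87 ± 0.40), the homeobox factor Lhx6 (2.01 ± 0.35), the lectin Lgals4 (1.53 ± 0.28), the phosphatase Alpl (1.53 ± 0.33) and Ccdc24 (1.76 ± 0.31) made up the rest. Ccdc24 and Slc6a9 overlap each other over 31.8% and 23.5% of their exon bases and Mybph overlaps 52.4% of Adora1, so the share of each in the reads is uncertain without strand. Bnip3, a mitophagy receptor, was among the largest rises in CPM of called genes without overlap, from 149.9 ± 19.9 to 344 ± 132 CPM (1.199 ± 0.20, adjusted p = 0.00085), and missed the fold limit without CORT liver 1.

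The 12 largest falls outside the lists were likewise taken among called genes whose groups did not overlap. They were led by Chrna4, the α4 subunit of the nicotinic acetylcholine receptor, at 171, 182, 157, 727 and 126 CPM with vehicle and at 0, 3.85, 4.43, 7.11 and 2.00 CPM with CORT (-6.28 ± 1.39, adjusted p = 0.0209). Ppard, the nuclear receptor PPARδ, was at 61.0, 33.8, 24.4, 73.2 and 29.6 CPM with vehicle and at 12.0, 6.31, 10.04, 11.5 and 5.87 CPM with CORT (-2.28 ± 0.30, adjusted p = 0.000231). Sort1, the sorting receptor sortilin, was called at -2.68 ± 0.39 (adjusted p = 0.000291), the Golgi protein Fam198a at -3.15 ± 0.62 (adjusted p = 0.00812) and the ephrin Efna3, which Gm15998 overlaps over 30.7% of its exon bases, at -2.37 ± 0.51 (adjusted p = 0.00825). Fcho1, Dnaic1, Mdk, Lpcat2 and Fxyd7 completed the 12 with Cd86 and Loxl4, given above, and their means were below 100 counts. By CPM the largest fall among called genes without overlap was that of Neat1, the nuclear RNA that builds paraspeckles. It was at 1652, 2160, 3098, 6147 and 1428 CPM with vehicle and at 741, 648, 683, 669 and 358 CPM with CORT (-2.22 ± 0.50, adjusted p = 0.0207). The vehicle livers differed widely from each other for Neat1, and all lay above the CORT livers, as the choice required. Adck3, which supports coenzyme Q synthesis (619 ± 117 to 298 ± 53.6 CPM, adjusted p = 0.00169), and Apol9b, an apolipoprotein L that shares 34.8% of its 100-base words with Apol9a (284 ± 46.5 to 82.0 ± 43.5 CPM, adjusted p = 0.000678), were also among the 8 largest falls in CPM. Neat1 lost its call without CORT liver 5 or vehicle liver 4 (highest adjusted p = 0.0602), and Adck3 fell below the fold limit without CORT liver 5 or vehicle liver 1.

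None of 78 respiratory chain genes (median 0.02) and none of 80 cytosolic ribosomal protein genes (median -0.07) were called. Of 36 proliferation genes none was called (median -0.38, and 0.00 in the 7 at a mean of at least 100 counts). In that list 1 gene was called lower with the replicate block, with DESeq2 and when only genes with a mean of at least 100 counts were tested, and 2 without CORT liver 3.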

How the data were processed

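The authors sequenced liver RNA as paired-end reads, which were aligned with HISAT2 (version 2.2.1) and counted with HTSeq-count (version 2.0.2, union mode, non-unique features included). The deposited table holds raw read counts per gene, one column per liver, not normalized. The study's methods name GRCm39 and the submitters' processing notes name mm10. Of the table's 48440 identifiers 91.4% occur in GENCODE M39, 35 with the same version, and many names are older ones; annotation release and strand setting are not given in the sources used here. The closing HTSeq lines, which name no gene, were left out: reads counted on genes were 36.6% to 40.4% of all lines, and reads on no feature 42.3% to 43.9%.

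Genes were filtered with filterByExpr on the 4 groups and scaled by TMM. They were tested in edgeR 4.0.16 (R 4.3.3, quasi-likelihood test, robust, a 4-group model of all 20 livers), with Benjamini-Hochberg adjustment over 16071 genes. The 10 livers of the other groups entered the filter, the scaling and the spread (common biological coefficient of variation 0.481), but not the contrast. The script was tested on simulated data with known changes. CPM were computed on TMM-scaled library sizes. Alternatives used DESeq2 1.42.0, limma 3.58.1, other filters and scalings, and each liver left out.

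Named genes were the first 2 of each list and up to 4 called members of each list by fold. The rule also took the 12 largest rises and falls outside the lists (called, non-overlapping, at least 1 CPM, no pseudogenes, predicted or variable-region genes). It further took the 8 largest of each direction in CPM among called, non-overlapping genes, lists included. Any other gene given with values was chosen after its values were seen, also where its own sentence does not say so. A few genes that the rule names are not reported here. The comparison, lists and rules were chosen with earlier results of these data known. Overlaps of exons and shared 100-base words were computed on GENCODE M39, promoters from RefSeq (GRCm38.p6).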

Additional observations from a re-analysis of the deposited data

Results flagged for a closer look

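For each of the 183 genes given with values, the highest and lowest liver of each group was compared with the others of its group, and 32 of 366 groups had a liver farther from its nearest neighbour than Dixon's 95% limit of 0.71 of the group's range. Chance flags about 1 in 20 groups. All values are CPM.

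CORT liver 5 stood high for Plin2 (635.8), Cyp4a14 (3939), Rab30 (71.67), C3 (8729), Col1a1 (11.73) and Ly86 (3.287), and low for Igf1 (560.6) and Neat1 (357.8). CORT liver 3 stood high for Irf7 (65.65), Ifit1 (22.22), Ifit3 (15.81), Igtp (65.97) and Csf3r (9.775), all of them genes of the interferon response or of myeloid cells, and for Cd3d (0.2671), which was at 0 in the other CORT livers. CORT liver 1 stood high for Fgf21 (61.83) and Igkc (14.7) and low for Mt2 (263.7). CORT liver 2 stood low for Vsig4 (4.254) and high for Mzb1 (4.104), and CORT liver 4 high for Cyp2e1 (4710).

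Vehicle liver 4, which also had the most zeros among vehicle livers, stood high for Chrna4 (726.7) and Acacb (241.1) and low for Enho (10.52), Plin2 (130.2), Rab30 (2.818), Ephx1 (157.0), Cyp8b1 (44.33) and Ttr (6791). Vehicle liver 1 stood high for Adck3 (828.8) and Igkc (34.33) and low for Id1 (11.08). Vehicle liver 3 stood high for Per1 (80.24). The part of single livers in these values was not tested beyond the fits that leave each out.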

How the results depend on the processing

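The counts of 82 higher and 230 lower genes became 130 and 397 with DESeq2's Wald test and 44 and 86 without the 3 livers with most zeros (CORT livers 1 and 2, vehicle liver 4), an alternative chosen after seeing the data. With only the 10 livers compared in the fit, 79 genes were higher and 152 lower. By the unadjusted p with the fold limit 233 and 657 passed, and by the adjusted p with no fold limit 215 and 299. Leaving out each liver in turn gave 52 to 103 higher and 153 to 318 lower genes, fewest without vehicle liver 2 and most without CORT liver 3. DESeq2's size factors, voom (76 and 166), the filters on low counts and library sizes without the 20 most abundant genes kept both counts within 1.5 times. The causes were not tested.

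Of 96 called genes given with values, none changed sign under any alternative in which it was tested. With at least 10 counts required in every liver 86 of them were tested, and at a mean of at least 100 counts 87. The call was lost by 52 without the 3 livers with most zeros, by 25 with voom, by 16 with only the 10 livers, and by 5 to 19 when 1 liver was left out. List medians moved most in the weakly expressed immune lists, between -2.40 and 0.03 over 20 alternatives for NK cells, -1.66 and 0.28 for monocytes, -0.72 and 1.02 for neutrophils and -3.08 and -0.34 for B cells, against -3.44 to -2.17 for MHC class II; medians already near 0 (the glucocorticoid response list, -0.13 to 0.41, for example) also crossed it. Among those lost without the 3 livers were H2-Aa, Cd74, Irf7, Isg15, Gbp3, Clec4f, Csf1r, Lcn2, Sult1e1, Mup20, Cyp4a14, Chrna4 and Neat1.

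The replicate numbers did not pair the livers: same-numbered livers of both groups deviated from their group means with correlations of -0.05 to 0.06, and 1 of 5 correlated best with its own number. With the replicate number as a block the counts were 67 and 217, and 6 of the 96 genes lost their call. Weak genes limit the results: the floor of 3 counts is 0.148 to 0.201 CPM, and transcripts near it were at 0 in many livers.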
